A study of Mus musculus with 8 samples.

Results

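The comparison described here was that of L1L2_Alb iHP with L1L2_Alb iHB, that is, of cultured mutant hepatoblasts before (iHB) and after (iHP) the step meant to turn them into hepatocytes. It rested on 3 of the 8 RNA sequencing libraries of the series, namely 1 library of L1L2_Alb iHB and 2 of L1L2_Alb iHP. Of the 23467 genes in the deposited table, 12840 had a mean of at least 1 RPKM (reads per gene, corrected for gene length and sequencing depth) over these 3 libraries and were compared. Each iHP library was set against the iHB library on log2(RPKM + 1). A gene was counted as higher or lower when both iHP libraries differed from iHB by at least 2-fold in the same direction, that is, by at least 1 on that log2 scale. With 1 iHB library these counts are descriptive.

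All cells came from E14.5 mouse fetal livers of the B6;129 mixed strain. L1L2_Alb cells carried the genotype Lats1-/-;Lats2f/fl;Alb-cre, in which *Lats1* is absent from every cell and *Lats2* is removed where the albumin promoter drives Cre, so that only cells with an active albumin promoter lose both kinases. Control cells were labelled wild type. Hepatoblasts were plated on collagen from digested whole liver after lysis of red cells, without a sort for hepatoblasts, so that other liver cells could be carried along. iHPs were given 12.5 ng/ml oncostatin M for 5 days according to the labels, whereas the study's methods give another duration, and iHBs are the cultured hepatoblasts themselves. The labels do not say whether the 2 iHP libraries were from separate cultures or embryos, so the spread between them may be technical. The question was which responses to oncostatin M remained in cells labelled as *Lats1/2* mutant, and 1 control iHB and 1 control iHP library are given beside them.

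Oncostatin M is a cytokine of the interleukin-6 family that fetal liver receives from its blood-forming cells. It binds the receptor OSMR together with gp130 (*Il6st*), and the Janus kinases on that receptor activate STAT3, which switches on its own inhibitor SOCS3 and, in hepatocytes, the genes of the acute-phase proteins, the plasma proteins made in large amounts during inflammation. The LATS1 and LATS2 kinases restrain YAP and TAZ, which keep immature liver cells in a progenitor or bile-duct-like state, and oncostatin M is used in culture to bring hepatoblasts towards hepatocytes.

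The libraries held 28694163 reads for L1L2_Alb iHB and 18436865 and 21308633 reads for L1L2_Alb iHP replicates 1 and 2, as recovered from the RPKM values, against 28460336 and 27991895 reads for control iHB and iHP. *Lats1* was at 13.9 RPKM in the library labelled L1L2_Alb iHB and at 22.7 and 7.12 RPKM in those labelled L1L2_Alb iHP, against 10.6 and 11.2 RPKM in the control libraries. *Lats2* was at 19.7, 17.7 and 27.6 RPKM in the same L1L2_Alb libraries and at 9.23 and 10.1 RPKM in control. Neither targeted gene was lower in the libraries labelled mutant as a group, so the values of these 2 genes do not check the labels, and it is not known here which exons were counted. All 15 hepatoblast markers were measured above 1 RPKM on average, with *Afp* at 3959, 2673 and 2603 RPKM and *Alb* at 524, 568 and 526 RPKM in L1L2_Alb iHB and the 2 iHP libraries. None of these 15 markers was higher or lower by 2-fold in both iHP libraries, and over all genes compared only 1.48% and 3.84% were. Genes of other cell types are described below with the genes that were lower.

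In L1L2_Alb iHPs the genes that were higher than in L1L2_Alb iHBs were led by acute-phase and other plasma protein genes, and the genes that were lower were led by genes of neutrophils and their precursors. At least 2-fold higher in both libraries were 190 of 12840 genes (1.48%), and at least 2-fold lower were 493 (3.84%). Above iHB in both by any amount were 24.3% of all genes, and below it in both 36.5%. The list counts below are to be read against these shares, and in a short list 0 calls lie near the 2-fold shares. In replicate 1 taken alone 326 genes were higher and 802 lower, and in replicate 2 taken alone 564 were higher and 1503 lower. Upper-quartile scaling, which moved the median difference of all genes from -0.09 to 0.03, gave 218 higher and 403 lower, and quantile normalization gave 239 and 347. The median difference of all genes compared was -0.07 in replicate 1 and -0.08 in replicate 2. The 2 differences had the same sign in 7816 genes (60.9%), and their Pearson correlation was 0.56. Both differences use the same iHB library and are not independent, which by itself makes them correlate.

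**Figure D1:**
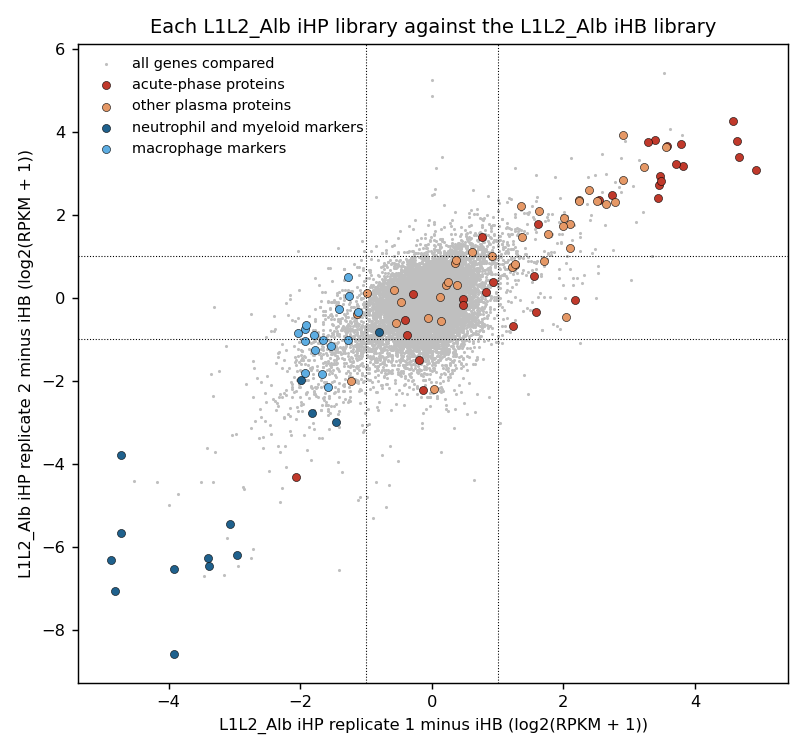
Difference of each L1L2_Alb iHP library from the L1L2_Alb iHB library on log2(RPKM + 1), replicate 1 on the x axis and replicate 2 on the y axis, 1 point per gene for the 12840 genes compared; dotted lines mark 2-fold. Of the 190 genes past both lines at the upper right, 17 are acute-phase and 18 other plasma protein genes, and of the 493 at the lower left 13 are neutrophil and 8 macrophage markers.

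A contrast fitted with limma on the 6 conditions of all 8 libraries, where the single iHB library is assumed to vary like the libraries that have a pair, called 0 of 12840 genes (0%) at an adjusted p under 0.05. The smallest adjusted p was 0.0593, shared by 6 genes, of which *Serpina3n*, *Fgl1*, *Plg*, *Il1rl1* and *Fut2* were higher and the microRNA gene *Mir142* was lower. At an unadjusted p under 0.05 limma passed 1041 genes, and at an adjusted p under 0.1 it passed 13 higher and 8 lower genes. Values of single genes below are therefore given for each library, and the words higher and lower refer to the 2-fold rule in both libraries.

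The signalling chain of oncostatin M was measured in all libraries. *Osmr*, the specific receptor, was at 10.7 RPKM in L1L2_Alb iHB and at 45.4 and 33.2 RPKM in the iHP libraries, and *Socs3*, the feedback inhibitor that STAT3 induces, was at 25.3 RPKM and then at 110 and 91.3 RPKM. Both iHP libraries were above L1L2_Alb iHB and also above control iHP, where *Osmr* was at 26.8 RPKM and *Socs3* at 63.7 RPKM. On the log2 scale *Socs3* differed by 2.08 and 1.81 in the 2 L1L2_Alb libraries and by 1.18 in control, and *Osmr* by 1.98 and 1.54 against 0.87. Of the 26 genes of this list, 25 passed the expression filter, *Osmr* and *Socs3* were higher and 3 were lower, and *Socs1* was below the filter at no more than 0.926 RPKM. The shared receptor chain *Il6st* was at 45.1, 70.3 and 77.5 RPKM, the kinase gene *Jak1* at 45.6, 51.6 and 51.1 RPKM and *Stat3* itself at 59.4, 83.6 and 56.9 RPKM, none of which reached 2-fold. The genes that were lower were *Il6ra*, the receptor for interleukin-6 itself (12.3 RPKM, then 5.35 and 2.82), *Cish*, a feedback inhibitor mainly of STAT5 (30.2 RPKM, then 13.4 and 6.82), and *Cebpb*, a transcription factor of the acute-phase response (33.2 RPKM, then 13.6 and 15.0). In control, *Il6ra* and *Cebpb* differed by -0.12 and -0.25, and *Cish* by -0.52, from 13.2 to 8.93 RPKM. Under upper-quartile scaling *Il6ra* and *Cebpb* no longer met the 2-fold rule, and under quantile normalization none of the 3 did. *Cebpd*, of the same factor family, was at 6.89, 12 and 13.1 RPKM and was below 2-fold.

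Acute-phase protein genes were, with other plasma protein genes, one of the 2 lists with the most genes that were higher. Of the 37 genes in the list 36 were in the table and 32 passed the filter, and of these 17 were higher and 1 was lower. The median over the 35 members above 0 RPKM was 1.62 in replicate 1 and 1.46 in replicate 2, against 2.06 in control and -0.03 and -0.05 for all genes above 0 RPKM in the 2 L1L2_Alb libraries. The 4 members below the filter were *Saa2*, *Saa4*, *Orm3* and *Mbl2*, at no more than 1.75 RPKM in these libraries. In control 27 of 34 members were higher and 1 was lower, and the 17 genes that were higher in L1L2_Alb iHPs were all among these 27.

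The genes of the 3 fibrinogen chains, which form the clot, were all higher. *Fgb* was at 408 RPKM in L1L2_Alb iHB and at 4322 and 5753 RPKM in the iHP libraries. *Fgg* was at 132 RPKM and then at 1589 and 1670 RPKM, and *Fga* at 93.2 RPKM and then at 1056 and 662 RPKM. The iHP libraries lay above the iHB library for every chain, with mean differences of 3.61 ± 0.29 for *Fgb* and 3.62 ± 0.05 for *Fgg* on the log2 scale (SD, n = 2). Control iHB had 2030 RPKM of *Fgb*, 970 RPKM of *Fgg* and 655 RPKM of *Fga*, and control iHP 10898, 5813 and 4053 RPKM. For all 3 chains both L1L2_Alb iHP libraries thus lay above control iHB and below control iHP.

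The stretches of 250 bases before the RefSeq starts of these 3 genes and of *Socs3* (build GRCm38.p6, a later build than that of the deposited table) are shown because these genes were higher together after the cytokine. Capitals mark the letters TTCNNNGAA, the palindrome that STAT factors bind, and CTGGGAA, a shorter element described in acute-phase genes, searched on both strands.
Each is written 5′ to 3′ along its gene. The *Fga* stretch is chr3:83025903-83026152 and the *Fgg* stretch chr3:83007474-83007723, both on the plus strand. The *Fgb* stretch is chr3:83049864-83050113 and the *Socs3* stretch chr11:117969367-117969616, both on the minus strand.
Fga: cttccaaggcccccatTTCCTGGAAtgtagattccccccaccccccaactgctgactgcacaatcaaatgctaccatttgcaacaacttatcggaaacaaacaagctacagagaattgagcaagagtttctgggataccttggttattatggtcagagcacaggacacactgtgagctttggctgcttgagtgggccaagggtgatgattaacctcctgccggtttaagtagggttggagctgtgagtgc
Fgb: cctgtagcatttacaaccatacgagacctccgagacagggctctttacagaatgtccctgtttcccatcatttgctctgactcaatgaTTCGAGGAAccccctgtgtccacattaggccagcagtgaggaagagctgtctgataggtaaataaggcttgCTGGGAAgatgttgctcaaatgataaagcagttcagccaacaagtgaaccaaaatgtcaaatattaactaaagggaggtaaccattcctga
Fgg: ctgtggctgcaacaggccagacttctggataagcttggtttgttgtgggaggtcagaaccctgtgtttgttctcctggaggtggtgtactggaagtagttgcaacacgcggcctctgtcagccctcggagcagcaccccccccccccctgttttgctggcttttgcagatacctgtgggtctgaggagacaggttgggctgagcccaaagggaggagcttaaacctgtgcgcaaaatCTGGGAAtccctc
Socs3: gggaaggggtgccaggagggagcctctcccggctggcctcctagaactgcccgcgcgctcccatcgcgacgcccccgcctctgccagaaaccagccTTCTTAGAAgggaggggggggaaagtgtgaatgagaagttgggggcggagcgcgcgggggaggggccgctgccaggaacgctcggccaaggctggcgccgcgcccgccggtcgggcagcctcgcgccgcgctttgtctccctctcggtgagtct
*Fga*, *Fgb* and *Socs3* each held TTCNNNGAA once, with its first base 234, 162 and 154 bases before the start, and *Fgb* and *Fgg* held CTGGGAA once, 91 and 13 bases before it. The 2 motifs can overlap, but in these windows they did not. Of the 17 acute-phase genes that were higher, 12 had a RefSeq window, and TTCNNNGAA was found in 4 of them (33.3%) and CTGGGAA in 3 (25.0%). Of the other 19 acute-phase genes measured, 14 had a window, with each motif in 3 (21.4%), and of all 27025 genes with a window 8.13% held the first and 10.4% the second. These are matches of letters and not bound sites.

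The mean fold of the 17 genes on the log2(RPKM + 1) scale ran from 3.23 for *C3* to 21.5 for *Serpina3n*. *Serpina3n*, which encodes an inhibitor of serine proteases, was at 6.55 RPKM in L1L2_Alb iHB and at 180 and 145 RPKM in iHP, a mean difference of 4.43 ± 0.22 (SD, n = 2). *Hpx*, the haem scavenger hemopexin, was at 37.9 RPKM and then at 535 and 508 RPKM. *Itih4*, an inter-alpha-trypsin inhibitor chain, was at 2.04 RPKM and then at 38.9 and 27.5 RPKM. For each of these genes the iHP libraries lay near each other and apart from the iHB library. *Orm1* and *Orm2*, the orosomucoids that carry lipids and drugs, were at 6.72 and 0.135 RPKM in L1L2_Alb iHB, at 82.8 and 28 RPKM in replicate 1 and at 40.0 and 10.9 RPKM in replicate 2. The iHB value of *Orm2* is 3 reads, at the floor of what can be read as expression, so no fold is given. The pentraxins *Crp* and *Apcs* were at 0.554 and 0.638 RPKM and reached 16.2 and 17.0 RPKM in replicate 1 and 10.8 and 9.78 RPKM in replicate 2. *C3*, the central complement component, was the smallest of the 17, at 125 RPKM and then 386 and 427 RPKM. Members of the *Orm*, *Serpina3* and *Saa* families are close copies of each other, and reads could have been split between them.

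All 17 genes started lower in L1L2_Alb iHB than in control iHB, at 2.15% to 20.1% of its level, and ended lower in both L1L2_Alb iHPs than in control iHP, at 3.43% to 52.8% of its level. For 13 of the 17 the difference from iHB to iHP was larger in both L1L2_Alb libraries than in control. On this scale the L1L2_Alb genes started from less. The 17 were chosen for high L1L2_Alb differences, and 161 of all 190 higher genes had the same trait. Over all 32 members that passed the filter it held for 14. Against control iHB, 7 of the 17 were above it in both L1L2_Alb iHPs, 7 were below it in both, and 3 lay on either side. With *Serpina3n*, control iHB was at 151 RPKM and control iHP at 1398 RPKM, so the L1L2_Alb iHP libraries were near the control before oncostatin M. With *Hpx* the control libraries were at 499 and 3390 RPKM, and the same description held.

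Other acute-phase genes were higher in control and not in L1L2_Alb iHPs. *Hp*, haptoglobin, was at 301 RPKM in L1L2_Alb iHB and differed by 0.93 and 0.38 in the iHP libraries, against 1240 and 6160 RPKM in control. *Lrg1*, a secreted leucine-rich glycoprotein, was at 22.5, 40.8 and 24.8 RPKM against 46.7 and 186 RPKM in control, and *Hamp*, the iron hormone hepcidin, at 382, 314 and 405 RPKM against 112 and 425 RPKM. These 3 genes differed in control by 2.31, 1.97 and 1.91, and in the L1L2_Alb libraries by no more than 0.93. Several members differed between the 2 L1L2_Alb iHP libraries. *C4b*, a complement component, was at 48.3 RPKM in replicate 1 and 9.49 RPKM in replicate 2 from 9.93 RPKM in iHB, and *Mt2*, a metal-binding metallothionein, at 7092 and 1868 RPKM from 2361 RPKM. *Steap4*, a metalloreductase, was at 7.06 and 1.12 RPKM from 2.42 RPKM. In these genes replicate 1 was higher as control was, and replicate 2 was not.

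*Saa3*, a serum amyloid that macrophages make as well as hepatocytes, was the 1 member that was lower, at 3516 RPKM in L1L2_Alb iHB and at 837 and 177 RPKM in iHP, and in control at 1766 and 787 RPKM. *Lcn2*, the siderophore binder lipocalin 2 that neutrophils also contain, was at 495, 434 and 174 RPKM, against 1093 and 2011 RPKM in control. Neutrophil and macrophage markers were lower in the same libraries (below), and their part in these 2 values was not tested.

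**Figure D2:**
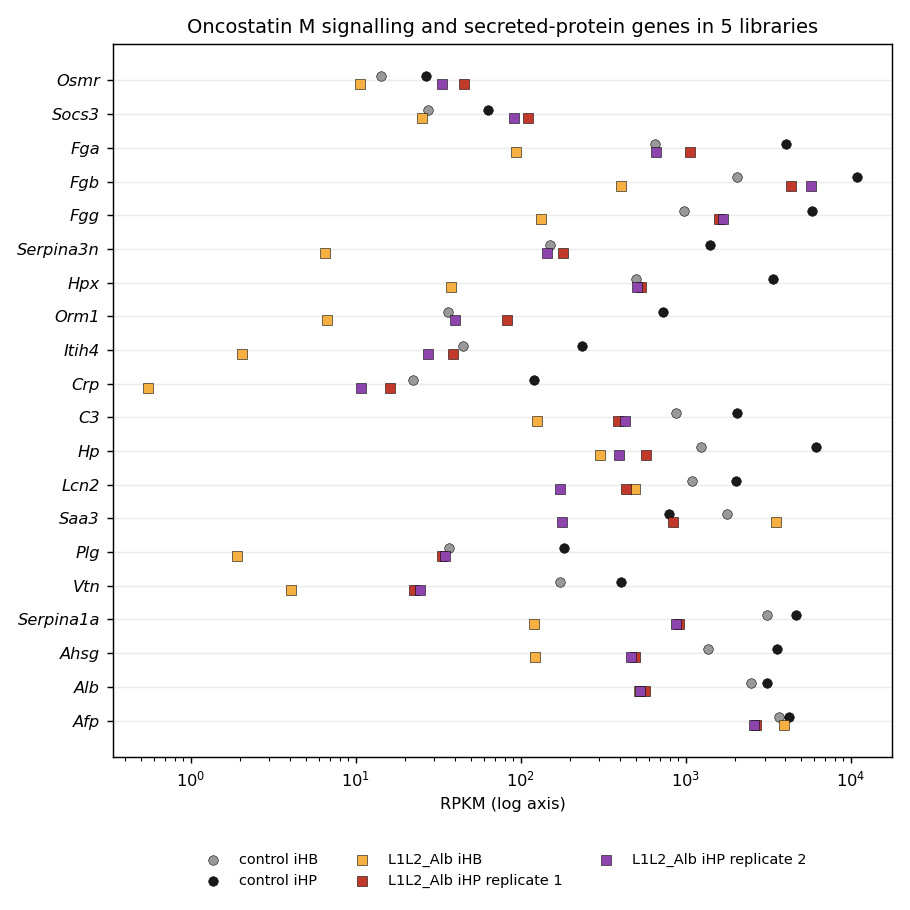
RPKM on a log axis of 20 genes of oncostatin M signalling and of secreted liver proteins, 1 row per gene and 1 point per library: circles are control iHB and iHP, squares L1L2_Alb iHB and the 2 iHP libraries. In *Serpina3n* and *Hpx* the L1L2_Alb iHP squares lie near control iHB, and in the fibrinogens they lie between control iHB and control iHP, whereas in *Alb* (524, 568 and 526 RPKM) the 3 L1L2_Alb squares coincide.

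Genes of other plasma proteins of the hepatocyte were the other such list. Of 47 measured members 40 passed the filter, 18 were higher and 1 was lower, and the median over all 47 was 0.91 and 0.82 in the L1L2_Alb libraries and 0.88 in control. *Plg*, plasminogen, was at 1.90 RPKM in L1L2_Alb iHB and at 33.2 and 34.9 RPKM in iHP. *Vtn*, the adhesive protein vitronectin, was at 4.05 RPKM and then at 22.7 and 24.6 RPKM, and *Ahsg*, fetuin A, at 122 RPKM and then at 494 and 467 RPKM. *Gc*, the vitamin D binding protein, was at 29.4 RPKM and then at 158 and 185 RPKM. In these genes the 2 iHP libraries lay close together and both above iHB. The 5 *Serpina1* genes, which encode alpha-1-antitrypsins and are near-identical copies whose reads cannot be separated with certainty, were all higher, *Serpina1a* for example at 120 RPKM and then at 910 and 872 RPKM.

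In control *Serpina1a* was at 3109 and 4635 RPKM and *Gc* at 823 and 972 RPKM, differences of 0.58 and 0.24. In control 10 of the 18 genes were past 2-fold. In both L1L2_Alb libraries 16 of the 18 differed by more than in control. That also held for 161 of all 190 higher genes, which were all chosen by their L1L2_Alb differences. Over all 40 members that passed the filter it held for 19. All 18 were below control iHB in L1L2_Alb iHB, at 1.77% to 17.3% of its level, and all 18 were still below control iHB in both L1L2_Alb iHP libraries. Against control iHP they were at 2.43% to 36.4%. The difference between genotypes of the response itself was tested with limma and called 0 of 12840 genes (0%), with a smallest adjusted p of 0.999 and 163 genes at an unadjusted p under 0.05. The median standard error of that difference was 0.61 on the log2 scale. The spread in this fit came only from the paired L1L2_Alb libraries. The lack of calls therefore does not show that the genotypes responded alike.

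Plasma protein genes with no such difference included the most abundant ones. *Alb*, albumin, was at 524 RPKM in L1L2_Alb iHB and at 568 and 526 RPKM in iHP, against 2485 and 3088 RPKM in control. *Apoa1* was at 8670, 8351 and 6225 RPKM and *Apoe* at 5768, 2627 and 4428 RPKM, so these lipoprotein genes stayed among the most abundant RNAs. *Ttr*, transthyretin, was at 65.9, 33.0 and 71.3 RPKM against 259 and 217 RPKM in control. *Apoc3*, which was higher in control (25.7 and 167 RPKM), was at 1.66, 2.48 and 2.33 RPKM. *Apob* differed between the iHP libraries, at 160 and 27.2 RPKM from 38.1 RPKM. *F10*, coagulation factor X, was the 1 gene that was lower, at 21.1 RPKM and then 8.45 and 4.53 RPKM, whereas in control it was at 27.7 and 48.6 RPKM. Of the 7 members below the filter, *Apoa4*, *C8a*, *C8b*, *C9* and *Hrg* were past 2-fold higher in control and at no more than 0.798 RPKM in the L1L2_Alb libraries.

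None of the 22 hepatic transcription factors that passed the filter, of 24 measured, was higher or lower in both libraries. With 1.48% higher and 3.84% lower among all genes, 0 calls in 22 genes is near those shares. The list medians were 0.22 and 0.10 against 0.26 in control. *Hnf4a*, which controls the hepatocyte programme, was at 20.2 RPKM in L1L2_Alb iHB and at 23.7 and 22.4 RPKM in iHP, against 48.4 and 64.4 RPKM in control. *Foxa2* was at 35.6, 26.8 and 36.0 RPKM, above the 9.96 and 10.4 RPKM of control. *Cebpa*, which restrains division and promotes hepatocyte maturation, was at 25.1, 11 and 12.7 RPKM, differences of -1.12 and -0.93 that missed the rule in replicate 2, and at 23.6 and 24.2 RPKM in control. *Prox1*, an early factor of hepatoblasts, was at 1.69, 2.86 and 4.76 RPKM against 9.94 and 12.4 RPKM, and *Onecut1* at 1.11, 2.32 and 5.20 RPKM against 10.4 and 15.9 RPKM. *Nr1h4*, the bile acid receptor FXR, was higher in control by 1.25 and differed in the L1L2_Alb libraries by 0.58 and 1.59.

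Metabolic genes of the mature hepatocyte ranged from undetected to well expressed, with *Glul*, glutamine synthetase, at 148, 139 and 128 RPKM and *Ass1*, of the urea cycle, at 88.1, 71.9 and 54.3 RPKM. Of 31 genes of gluconeogenesis, the urea cycle and amino acid breakdown 20 passed the filter, 4 were higher and 1 was lower, against 11 higher of 28 in control. *Mat1a*, which makes S-adenosylmethionine, was at 0.670 RPKM and then at 8.84 and 7.18 RPKM, and *Cps1*, the entry enzyme of the urea cycle, at 2.24 RPKM and then at 21.0 and 6.24 RPKM, against 139 and 340 RPKM in control iHP. *Fbp1*, an enzyme of gluconeogenesis, was at 1.32 RPKM and then at 6.86 and 3.87 RPKM, against 10.7 and 34.9 RPKM in control. *Arg1*, arginase 1 of the urea cycle and also of macrophages, was lower, at 501 RPKM and then at 122 and 188 RPKM, against 135 and 165 RPKM in control. *Bhmt*, which remethylates homocysteine, was at 0, 6 and 7 reads in the 3 L1L2_Alb libraries and at 381 and 3399 reads in control. *Tat*, tyrosine aminotransferase, was at 1, 6 and 4 reads against 91 and 469 reads, and *G6pc*, the glucose-6-phosphatase, at 23, 43 and 19 reads against 560 and 1414 reads. These genes were detected in control before and after oncostatin M and stayed at few reads in L1L2_Alb cells.

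Of 20 genes of bile acid synthesis and transport 8 passed the filter and 2 were higher. These were *Acox2*, a peroxisomal oxidase of bile acid side chains (41.8 RPKM, then 114 and 88.0), and *Abcc2*, a canalicular export pump (2.24 RPKM, then 6.84 and 6.10). *Cyp7a1*, the rate-limiting enzyme of bile acid synthesis, had 0, 2 and 0 reads in the L1L2_Alb libraries, under the floor of 3 reads, and 38 and 152 reads in control. *Slc27a5*, a bile acid ligase, had 2, 24 and 6 reads against 43 and 427 reads. Of 37 genes of xenobiotic metabolism 24 passed the filter and *Cyp2d9*, *Cyp2d26*, *Sult1a1* and *Gsta3* were higher, *Sult1a1*, a sulfotransferase, at 14.0 RPKM and then at 57.6 and 36.8 RPKM. Of 16 fetal genes 14 passed and 2 were higher, *H19* (108 RPKM, then 262 and 330) and *Cd24a*, a surface protein of progenitors (30.2 RPKM, then 71.4 and 161), which in control was at 103 and 75.4 RPKM. Of 24 genes of fatty acid oxidation 22 passed and 2 were higher, the fatty acid carriers *Cd36* (2.08 RPKM, then 16.2 and 23.0) and *Fabp1* (1.35 RPKM, then 6.72 and 7.44). Of 29 genes of cholesterol and fatty acid synthesis none was higher or lower. Of 21 glycolysis genes *Pgk1* alone was higher, at 791 RPKM and then at 1731 and 2546 RPKM.

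Biliary and progenitor markers differed in both directions. Of 27 measured 21 passed the filter, 2 were higher and 1 was lower, against 1.48% and 3.84% of all genes. Above iHB in both libraries were 6 and below it in both 11, against 24.3% and 36.5% of all genes. The medians were -0.08 and -0.05 against -0.32 in control. The biliary keratins *Krt7* and *Krt19* were at 1470 and 400 RPKM in L1L2_Alb iHB, at 1361 and 377 RPKM in replicate 1 and at 1167 and 493 RPKM in replicate 2. Control was at 400 and 361 RPKM for *Krt7* and at 273 and 168 RPKM for *Krt19*. *Spp1*, osteopontin, was higher at 428 RPKM and then 1068 and 2045 RPKM, and *Tff3*, a trefoil factor of mucous epithelia, at 94.2 RPKM and then 425 and 321 RPKM. *Ggt1*, gamma-glutamyltransferase, was lower at 6.19 RPKM and then 2.39 and 1.35 RPKM, and did not meet the rule under quantile normalization. *Sox9*, the biliary transcription factor, was at 5.03, 17.9 and 5.49 RPKM and *Tff1* at 63.9, 528 and 86.3 RPKM, so that replicate 1 stood apart from the other L1L2_Alb libraries in both. *Epcam* was at 20.8, 35.9 and 39.2 RPKM, differences of 0.76 and 0.88, whereas in control it was at 55.0 and 23.6 RPKM.

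Among 24 adhesion and junction genes 21 passed the filter, *Gja1*, connexin 43, was higher at 3.51 RPKM and then 8.98 and 14.7 RPKM, and *Ceacam1*, a hepatocyte adhesion protein, was lower at 7.70 RPKM and then 2.6 and 1.78 RPKM. *Gjb1*, connexin 32 of hepatocytes, was at 4.96, 9.90 and 19.6 RPKM and missed the rule in replicate 1. *Cdh1*, E-cadherin, was at 84.1, 130 and 128 RPKM. Of 14 EGF-family ligand and receptor genes 10 passed and none was higher or lower. *Egfr* was at 105, 90.9 and 78.4 RPKM, and in control at 43.5 and 96.3 RPKM.

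The pathway that the mutation targets was described by 2 lists. None of the 21 Hippo pathway genes was higher or lower in both libraries, with *Yap1* at 29.5, 37.5 and 33.3 RPKM and *Wwtr1*, the gene of TAZ, at 35.2, 28.2 and 23.2 RPKM. Of 24 measured YAP and TAZ target genes 22 passed the filter, none was higher and 2 were lower. Beside 1.48% higher and 3.84% lower among all genes, such small counts do not set either list apart. The medians of the target genes were -0.29 and -0.22 against -0.26 in control. *Ctgf*, a matricellular protein and target of YAP, was at 2469 RPKM in L1L2_Alb iHB and at 1183 and 1168 RPKM in iHP. *Cyr61*, of the same family, was at 848, 470 and 495 RPKM, differences of -0.85 and -0.78, and *Ankrd1* at 376, 303 and 567 RPKM. *Fjx1*, a secreted kinase of the Golgi, was lower at 18.1 RPKM and then 8.18 and 1.30 RPKM. Control was at 523 and 387 RPKM of *Ctgf* and at 194 and 161 RPKM of *Cyr61*, so the L1L2_Alb iHP libraries stayed above both control libraries for these 2 genes. Under upper-quartile scaling and under quantile normalization *Ctgf* and *Fjx1* no longer met the rule.

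Of the 24 genes of TGFβ signalling, all of which passed the filter, none was higher and 4 were lower, against 3.84% of all genes. Below iHB in both libraries were 14, against 36.5% of all genes. The medians were -0.18 and -0.66, and in control the median was -0.38 with 4 genes lower. *Ltbp2*, a matrix protein related to the TGFβ carriers, was at 26 RPKM and then at 3.43 and 3.19 RPKM, and *Tgfbi*, a matrix protein that TGFβ induces, at 71.2 RPKM and then at 17.8 and 6.27 RPKM. *Pmepa1*, a feedback inhibitor, was at 13.2 RPKM and then at 3.52 and 1.67 RPKM. *Smad7*, the inhibitory SMAD, was at 27.8 RPKM and then at 12.8 and 8.65 RPKM, and lost the rule under upper-quartile scaling and quantile normalization. *Tgfb2*, a ligand gene, was at 27.9, 17.6 and 20.1 RPKM, above the 7.83 and 5.07 RPKM of control.

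Of 30 matrix and contractile genes measured 29 passed the filter, 4 were lower and 1 was higher, against 3.84% and 1.48% of all genes. Below iHB in both libraries were 20, against 36.5% of all genes. The medians were -0.67 and -0.35 against -0.64 in control. *Postn*, periostin, was at 37.5 RPKM and then at 2.75 and 9.76 RPKM, *Cnn1*, calponin of smooth muscle, at 52.1 RPKM and then at 7.78 and 12 RPKM, and *Acta2*, smooth muscle actin, at 385 RPKM and then at 76.2 and 154 RPKM. *Thbs1*, thrombospondin, was at 1084 RPKM and then at 384 RPKM in both libraries. *Timp1*, an inhibitor of matrix proteases and a known target of oncostatin M, was higher at 171 RPKM and then 661 and 909 RPKM, against 224 and 469 RPKM in control. *Vim*, vimentin, was at 1999, 1249 and 1705 RPKM. Stellate cell and fibroblast markers, some of which are in this list as well, had 2 of 9 members that passed the filter lower, *Des* and *Postn*, with a summed level of 884 RPKM in L1L2_Alb iHB and of 507 and 783 RPKM in iHP. In bulk RNA fewer cells of a type and less RNA per cell cannot be told apart.

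**Figure D3:**
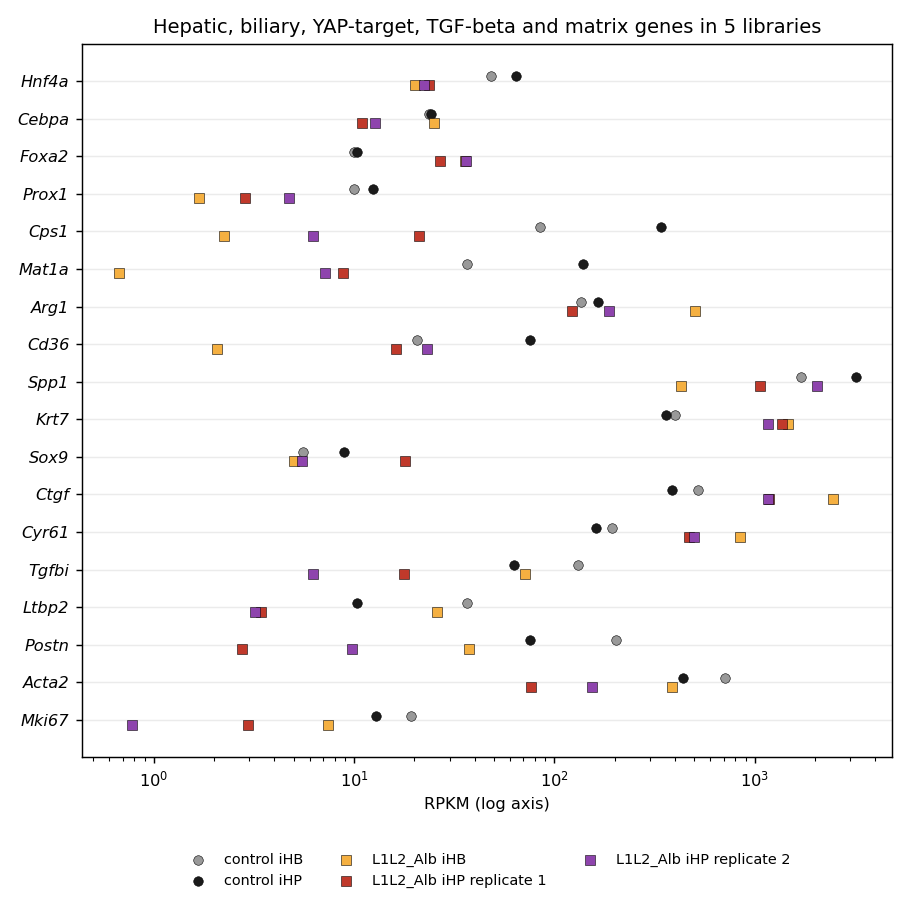
RPKM on a log axis of 18 genes, among them hepatic, biliary, YAP-target, TGFβ-related and matrix genes, in 5 libraries, with the symbols of the plot of secreted-protein genes. *Cps1* and *Mat1a* of L1L2_Alb iHPs lie between L1L2_Alb iHB and control, and *Ltbp2*, *Tgfbi* and *Postn* lie below all other libraries.

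Among genes of cell division, most mitosis genes lay below iHB. Of 35 mitosis genes 32 passed the filter, 5 were lower, against 3.84% of all genes, and none was higher. Below iHB in both libraries were 29, against 36.5% of all genes. The medians were -0.68 and -1.05 against -0.52 in control. Over the members that passed the filter, the median of the mean difference was -0.76. It was -1.11 with a pseudocount of 0.1, so the number past 2-fold depends on the pseudocount at these low levels. *Mki67*, a marker of dividing cells, was at 7.44 RPKM and then at 2.94 and 0.778 RPKM, against 19.2 and 12.8 RPKM in control, and *Plk1*, a mitotic kinase, at 9.97 RPKM and then at 3.94 and 1.66 RPKM. The others were *Aurkb*, *Kif11* and *Nuf2*. Under quantile normalization none of the 5 met the rule. *Kif11* and *Nuf2* also lost it under upper-quartile scaling. Of 37 DNA replication genes 34 passed and *Mcm5* and *Cdc45* were lower, a number near the 3.84% of all genes. Below iHB in both libraries were 24, against 36.5% of all genes. Of 23 G1 genes *Cdkn1c*, the inhibitor p57 (61.4 RPKM, with differences of -2.01 and -1.07), and *E2f2* (2.99 RPKM, then 0.607 and 0.149) were lower. Under upper-quartile scaling and quantile normalization *Cdc45* and *Cdkn1c* lost the rule. Of 25 p53 target genes none was higher or lower, and the medians were -0.26 in replicate 1 and 0.39 in replicate 2. The medians of the 2 iHP libraries thus had opposite signs, *Cdkn1a* being at 305, 226 and 300 RPKM and *Gdf15*, a stress cytokine, at 3.67, 4.95 and 18.7 RPKM.

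The genes that were lower by the most are those of neutrophil granules and myeloid precursors. *Mpo*, myeloperoxidase, was at 155 RPKM in L1L2_Alb iHB and at 4.52 and 0.166 RPKM in iHP. *Elane*, neutrophil elastase, was at 79.1 RPKM and then at 1.71 RPKM and at 0 reads, at least 517-fold lower in replicate 2 when 0 is set at the floor of 3 reads. *Ngp*, a granule protein, was at 598 RPKM and then at 38.4 and 0.566 RPKM. In control the same 3 genes were at 297, 120 and 1397 RPKM in iHB and at 225, 74.2 and 1017 RPKM in iHP, so the control library kept them. Further genes among the 10 that were lower by the most were *Ctsg*, *Prtn3*, *Camp*, *Fcnb*, *Ms4a3* and *Ifitm6*, all of myeloid cells, and *Tpbpb*, a gene of placental trophoblast. Of the 14 neutrophil markers measured, 13 were lower and *Cxcr2* was not (7.98, 4.17 and 4.06 RPKM). Their summed level was 5091 RPKM, 0.732% of all RPKM of the library, in L1L2_Alb iHB, and 527 and 83.4 RPKM in iHP, against 15311 and 10419 RPKM in control. Only 1 of the 14 was at 0, in replicate 2.

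Macrophage markers were lower too, and by less. Of 19 measured 16 passed the filter and 8 were lower, of which *Emr1*, *Fcer1g*, *Mpeg1* and *Tyrobp* lost the rule under upper-quartile scaling and *Aif1*, *Emr1* and *Mpeg1* under quantile normalization. The list had a summed level of 4059 RPKM in L1L2_Alb iHB, 1292 and 2323 RPKM in iHP, and 4180 and 2618 RPKM in control. *Csf1r*, the receptor of the macrophage growth factor, was at 189 RPKM and then at 58.7 and 52.4 RPKM, whereas *Lyz2*, lysozyme, was at 1189, 448 and 989 RPKM and the complement gene *C1qa* at 334, 86.8 and 200 RPKM. For *Lyz2* and *C1qa* replicate 2 lay nearer to iHB than replicate 1. Of the other cell types, 1 of 4 erythroid markers that passed the filter was lower (*Hbb-b2*, not under quantile normalization), 1 of 9 endothelial markers (*Stab1*), 1 of 7 markers of mast cells, eosinophils and megakaryocytes (*Prg2*), and 1 of 6 mesothelial markers, *Podxl*, was higher at 9.68 RPKM and then 75.7 and 66.8 RPKM. Summed levels in L1L2_Alb iHB and the 2 iHP libraries were 48.8, 13.8 and 32.7 RPKM for erythroid, 101, 41.9 and 49.2 RPKM for endothelial, 95.2, 42.0 and 78.1 RPKM for mast cell, eosinophil and megakaryocyte, and 3662, 3420 and 2150 RPKM for mesothelial markers, the last almost wholly *Msln*. Of the 15 hepatocyte markers, which include genes described above, 11 passed and 4 were higher, *Serpina1a*, *Cps1*, *Fgb* and *Hpx*.

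Several cytokine and interferon genes were lower as well. Of 23 chemokine and interleukin genes 18 passed the filter, 5 were lower and 1 was higher, against 3.84% and 1.48% of all genes. In control 3 of 18 were lower and 2 were higher. The medians were -0.71 and -1.66 in the L1L2_Alb libraries and -0.54 in control. *Cxcl12*, a chemokine that holds blood precursors in place, was at 29.6 RPKM and then at 3.95 and 1.96 RPKM, *Cx3cl1* at 17.7 RPKM and then at 5.88 and 4.84 RPKM, and *Tnf*, a cytokine of macrophages, at 8.12 RPKM and then at 3.45 RPKM and at 0 reads. *Cxcl16* and *Ccl5* were the other 2. *Il33*, an alarm cytokine of epithelia, was higher at 1.32 RPKM and then 19.6 and 22.2 RPKM, against 2.55 and 8.08 RPKM in control. *Cxcl2*, a neutrophil attractant, was at 46.5, 28.2 and 0.433 RPKM. Of 28 interferon-stimulated and antigen-processing genes 22 passed, 4 were lower (*Irf7*, *Isg15*, *Psmb8* and *Psmb9*) and none was higher. In control 5 of 26 were lower. The medians were -0.66 and -0.49 in the L1L2_Alb libraries and -0.64 in control, so this list lay below iHB in both genotypes. Below iHB in both libraries were 18, against 36.5% of all genes. *Isg15* was at 11.3 RPKM and then at 3.44 and 2.42 RPKM, and in control at 14.6 and 4.73 RPKM. *Tnf* and *Psmb8* lost the rule under upper-quartile scaling and quantile normalization, and *Psmb9* under the second of these. The part of the fewer neutrophil and macrophage RNAs in these values, and in the 493 lower genes as a whole, was not tested.

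**Figure D4:**
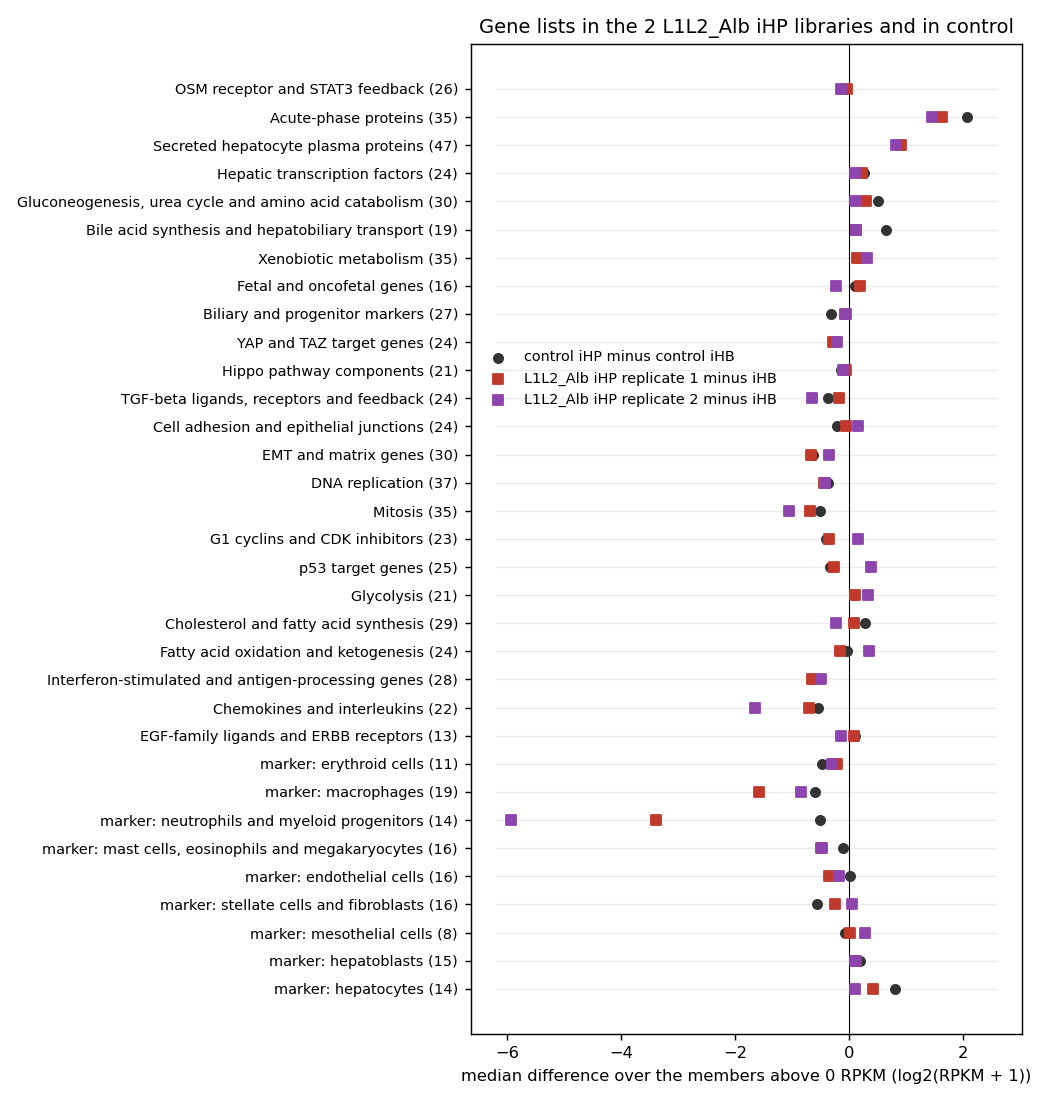
Median difference of each gene list on log2(RPKM + 1), over the members above 0 RPKM (their number in brackets), for L1L2_Alb iHP replicates 1 and 2 against L1L2_Alb iHB (squares) and for control iHP against control iHB (circles). Acute-phase proteins (1.62, 1.46 and 2.06) and plasma proteins lie to the right in all 3, and neutrophil markers lie at -3.39 and -5.94 in the L1L2_Alb libraries and at -0.51 in control.

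Only 58 of the 190 higher genes and 61 of the 493 lower genes were in any list. Of the 10 genes named as higher by the most, 7 were secreted liver proteins described above or their relatives (*Serpina3n*, *Serpina3m*, *Hpx*, *Fgg*, *Plg*, *Fgb* and *Orm2*). The other 3 were *Fut2*, a fucosyltransferase of epithelia, *Il1rl1*, which encodes the receptor of IL-33, and *Npy*, a peptide hormone best known from neurons. *Fut2* was at 0.347 RPKM in L1L2_Alb iHB and at 17.7 and 19.5 RPKM in iHP, whereas control iHB was at 0.0642 RPKM. *Il1rl1* was at 0.388 RPKM and then at 16.0 and 22.1 RPKM, against 1.68 RPKM in control iHB. *Npy* was at 1.92 RPKM and then at 32.7 and 124 RPKM, so the 2 iHP libraries differed from each other in this gene. It was also higher in control, at 1.74 and then 27.3 RPKM, a difference of 3.37. In control iHP *Fut2* was at 0.635 RPKM and *Il1rl1* at 2.23 RPKM, control differences of 0.62 and 0.27. The control values of *Fut2* are so low that the 1 added to each RPKM keeps its difference small. Both *Il33* and its receptor gene were thus higher in L1L2_Alb iHPs, each in both libraries.

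The response of the control cells was then followed in the L1L2_Alb libraries. In control, with 1 library per stage, 259 of 13469 genes (1.92%) were at least 2-fold higher in iHP and 246 (1.83%) at least 2-fold lower. Of the 259 and 246 genes 64 and 53 were below the expression filter in L1L2_Alb cells. Of the 195 higher genes that passed it, 148 were above iHB in both L1L2_Alb libraries (75.9%, against 24.3% of all 12840 genes), 76 of them by at least 2-fold in both, 9 were below it in both and 38 were mixed. Of the 193 lower genes that passed it, 146 were below iHB in both (75.6%, against 36.5% of all genes), 56 of them by at least 2-fold. The 76 genes were 29.3% of the 259 and 40.0% of the 190 genes higher in L1L2_Alb iHPs, and the 56 genes were 22.8% of the 246 and 11.4% of the 493. Replicate 1 alone had 120 of the 259 genes past 2-fold and replicate 2 alone 84. The median difference of all 259 genes, those below the filter included, was 1.51 in control and 1.02 and 0.62 in the L1L2_Alb libraries, and that of the 246 genes -1.22 and then -0.76 and -0.61. The control values were used to choose these genes and not to test them.

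**Figure D5:**
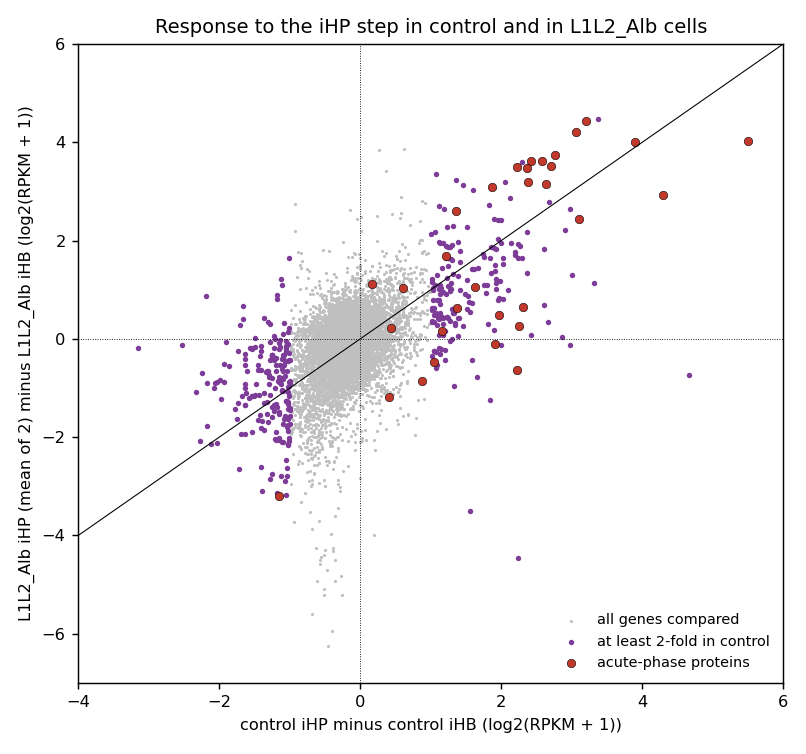
Difference of control iHP from control iHB (x axis) and mean difference of the 2 L1L2_Alb iHP libraries from L1L2_Alb iHB (y axis), both on log2(RPKM + 1), 1 point per gene for the 12840 genes compared; the line marks equal differences. Of the 259 genes that were higher in control 76 were also past 2-fold in both L1L2_Alb libraries, and the lowest point on the y axis is at -6.25.

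Seen from the L1L2_Alb side, 160 of the 190 higher genes also had a control difference above 0, with a median of 0.78 against 1.72 in L1L2_Alb cells. In 150 of the 190 the L1L2_Alb iHB level was below that of control iHB, and in 98 both L1L2_Alb iHP libraries were below control iHP. Of the 493 lower genes 467 were also below 0 in control, with a median of -0.63 against -1.67. The median control difference of all 12840 genes compared was -0.18, so most of them lay below 0 there too. The 190 and 493 genes were chosen by their L1L2_Alb values, so larger L1L2_Alb medians follow in part from that choice. How many of all genes lay above 0 in control, or lower in L1L2_Alb iHB than in control iHB, was not counted. Genes that differed by at least 2-fold in the opposite direction in control were 4. *Olfml3*, a secreted matrix protein, was at 1.75, 5.59 and 10.2 RPKM in the L1L2_Alb libraries and lower in control. *Snord64*, a small nucleolar RNA, had 3, 6 and 6 reads and is too shallow to read. *Tpbpb* was at 48.3, 1.15 and 1.32 RPKM and *Chi3l4*, a chitinase-like protein of myeloid cells, at 14.1, 0.539 and 0.155 RPKM, whereas in control they were at 6.68 and 35.2 RPKM and at 32.8 and 98.6 RPKM. At the edge of the 2-fold rule, the smaller library difference of the genes just outside it was 0.998 for higher and 0.997 for lower genes.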

How the data were processed

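RNA was sequenced from 8 libraries of cultured fetal mouse hepatoblasts, of which the 5 of iHB and iHP were described. The authors deposited 1 table of RPKM values per gene. Its header names no unit, and RPKM was read from how the values behave. No further scaling was seen. Bowtie 0.12.2 and mm8 are named in the submitters' processing notes, with no role given. Whole reads were recovered for 82.6% of genes above 0, and they gave the depths. A count model was not run. Values of 2 list members are not reported here.

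Of 23471 entries, 4 of repeated symbols were left out. Values were compared as log2(RPKM + 1) for genes whose average over L1L2_Alb iHB and both L1L2_Alb iHPs reached 1 RPKM (for control genes, over control iHB and iHP). limma 3.58.1 in R 4.3.3, with a trend, was fitted to all 8 libraries and p-values were adjusted by Benjamini-Hochberg. The limma step was tested on simulated data. Python 3.11.15, numpy 2.4.6, pandas 2.3.3 and matplotlib 3.10.9 were used for the rest.

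Genes are named as the 10 higher and 10 lower by the most, ranked by the smaller of the 2 library differences (symbols of small RNAs, predicted genes and clones passed over), as genes opposite to control, or as members of 24 gene lists and 9 cell type marker lists. *Mir142* was named after its values were seen. The comparison and the lists were chosen with earlier results of these data known. Alternatives were a pseudocount of 0.1, upper-quartile scaling, quantile normalization, other filters and folds, and leaving out each iHP library. Between the 2 L1L2_Alb iHP libraries the chi-square per degree of freedom was 151 over 12324 genes with at least 10 reads, so they are not 1 library deposited again. Depth intervals and the floor of 3 reads cover counting error only.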

Additional observations from a re-analysis of the deposited data

Results flagged for a closer look

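For 7 of the 129 named genes that met the 2-fold rule, both L1L2_Alb libraries lay on one side of iHB and the control iHP library on the other side of control iHB. The mean L1L2_Alb difference on log2(RPKM + 1) and the control difference were -1.72 and 0.28 for *Arg1*, 1.79 and -0.44 for *Cd24a*, -3.51 and 1.56 for *Chi3l4*, and -1.61 and 0.79 for *F10*. They were 1.64 and -1.01 for *Olfml3*, 1.21 and -1.13 for *Snord64*, and -4.47 and 2.24 for *Tpbpb*. *Chi3l4*, *Olfml3*, *Snord64* and *Tpbpb* were among the genes named for being opposite to control, so their place here follows from that choice. Among all genes that met the rule, 160 of the 190 higher and 467 of the 493 lower had a control difference of the same sign. The control direction rests on 1 library per stage, with no replicate. The limma test of the difference between genotypes did not pass for any of the 7, with an adjusted p of 0.999 for each. Control differences of *Arg1* and *Cd24a* are small beside the standard errors of 0.656 and 0.77 of that test. Its spread came only from the paired L1L2_Alb libraries, so not passing does not show that the genotypes responded alike. *Snord64* rests on 3, 6 and 6 reads in the L1L2_Alb libraries.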

How the results depend on the processing

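The 190 genes at least 2-fold higher in L1L2_Alb iHP and the 493 genes at least 2-fold lower in L1L2_Alb iHP became 289 higher with a pseudocount of 0.1, 294 lower at a mean RPKM of at least 5, 47 and 83 at 4-fold, and 328 and 857 when the mean of both libraries had to pass 2-fold. With 1 iHP library left out they ranged from 324 to 564 higher and from 817 to 1519 lower. Without replicate 1 the numbers were 564 and 1519, and without replicate 2 they were 324 and 817. The 76 higher genes shared with control became 125 with a pseudocount of 0.1 and ranged from 84 to 122 with 1 iHP library left out. The 56 lower ones became 115 with that pseudocount, 23 under upper-quartile scaling and 26 under quantile normalization, and ranged from 82 to 95. The limma calls, L1L2_Alb iHP against iHB, numbered 6 with a pseudocount of 0.1, 7 at a mean RPKM of at least 5, 9 without a trend and 21 at an adjusted p under 0.1, against 0 as reported, with a smallest adjusted p between 0.0479 and 0.328 over the alternatives. Leaving out 1 iHP library or taking the mean drops the demand that both libraries pass. A 4-fold rule and a mean RPKM of at least 5 are stricter cuts, and an adjusted p under 0.1 is a looser one. The cause of the other changes was not tested. The test of the difference between genotypes called 0 genes under each alternative run. Of 1049 values for 129 named genes and the 24 lists under the alternatives, 909 moved by less than the spread between the 2 libraries, and 140 moved by more. Part of this was fixed in advance. For a named gene, leaving out 1 iHP library always moves the value by less than that spread. It cannot change the sign either, because both libraries had to pass. Another filter leaves the value of a gene as it was. Only the scaling and normalization settings could have changed the sign of a named gene. No value of a named gene changed sign, but 17 medians of 9 lists did, medians of the mean difference over members that passed the filter, which lay between -0.17 and 0.04 before and were at most 0.26 in size after the change. Of the named genes, 15 lost the 2-fold rule under upper-quartile scaling and 21 under quantile normalization.

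No paired analysis was possible because the single iHB library has no partner for the replicate numbers of the iHP libraries. Depth limits genes under about 10 reads, such as *Cyp7a1*. With 1 iHB library, a peculiarity of that library and the effect of oncostatin M cannot be told apart, and culture time and oncostatin M cannot be told apart either.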
